A study of Mus musculus with 96 samples.

Results

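The genes of cholesterol synthesis and sterol sensing were followed in liver as a fixed list of 30 genes, and a member was measured by the probe sets annotated to its symbol alone. Of the 30 genes, 27 had such a probe set, all 27 passed the filter on low signals, and they are 27 of 14813 genes tested. Acat2, Soat1 and Soat2 were not analysed here. Where a gene had several probe sets, the one with the highest mean log2 signal was used.

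The study measured liver RNA of 96 male mice on 96 single-colour Affymetrix arrays, 1 mouse per array. The mice were bought at an age of 6 weeks, kept in single cages and given 84 kcal of purified diet each week during the first 2 weeks. From 8 weeks of age they received either a diet restricted by 25% in calories or the control diet, and the liver was collected at 22 weeks, after 14 weeks of feeding. Each diet was given to 8 mice of each of 6 strains, the inbred strains CBA/J, 129S1/SvImJ, DBA/2J, C3H/HeJ and C57BL6/J and the hybrid B6C3F1/J, a cross of C57BL6/J and C3H/HeJ, which makes 48 restricted and 48 control mice. Values are log2 MAS5 signals, a brightness with no further unit, so a difference of 1 is a doubling. A gene is called where limma gives an adjusted p under 0.05 over all genes.

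Cholesterol is built in the cytosol and endoplasmic reticulum from acetyl-CoA through mevalonate, isoprenoid diphosphates, squalene and lanosterol. When membrane sterol is low, SCAP escorts the transcription factor SREBP-2, the product of Srebf2, to the Golgi, where it is cut and released to the nucleus, and INSIG proteins hold SCAP back when sterol is high. Liver is a main site of this synthesis, and most genes of the pathway are known targets of SREBP-2.

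The promoters of 24 of the 30 genes were matched by symbol in the RefSeq table for GRCm38.p6, with 30 promoters between them. The 250 bases before the start are shown for 4 genes of different steps that were called higher together, and for both INSIG genes, whose diet differences were unlike. Capitals mark TCACNCCAC, a form of the sterol regulatory element, and CCAAT, the core of the NF-Y site, on either strand, so CCAAT on the other strand appears as ATTGG. The 6 windows are Hmgcs1 at chr13:119690101-119690350 on the plus strand, Mvd at chr8:122443423-122443672 on the minus strand, Idi1 at chr13:8885356-8885605 on the plus strand, Lss at chr10:76531355-76531604 on the plus strand, Insig1 at chr5:28071162-28071411 on the plus strand and the farthest upstream listed start of Insig2 at chr1:121332590-121332839 on the minus strand.
Hmgcs1: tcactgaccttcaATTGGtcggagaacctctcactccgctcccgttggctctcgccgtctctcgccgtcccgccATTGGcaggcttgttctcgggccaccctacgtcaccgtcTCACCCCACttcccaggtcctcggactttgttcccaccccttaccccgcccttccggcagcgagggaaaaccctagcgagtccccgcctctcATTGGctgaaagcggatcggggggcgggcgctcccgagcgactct
Mvd: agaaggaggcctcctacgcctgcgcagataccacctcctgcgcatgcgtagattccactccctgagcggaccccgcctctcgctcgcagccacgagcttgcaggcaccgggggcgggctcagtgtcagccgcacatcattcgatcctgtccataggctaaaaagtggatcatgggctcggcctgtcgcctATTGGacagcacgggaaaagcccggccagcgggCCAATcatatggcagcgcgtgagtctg
Idi1: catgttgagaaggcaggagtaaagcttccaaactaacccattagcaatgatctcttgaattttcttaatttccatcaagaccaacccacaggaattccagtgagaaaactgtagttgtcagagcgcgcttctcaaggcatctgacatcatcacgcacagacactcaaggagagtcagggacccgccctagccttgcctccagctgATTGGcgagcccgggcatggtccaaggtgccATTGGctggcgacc
Lss: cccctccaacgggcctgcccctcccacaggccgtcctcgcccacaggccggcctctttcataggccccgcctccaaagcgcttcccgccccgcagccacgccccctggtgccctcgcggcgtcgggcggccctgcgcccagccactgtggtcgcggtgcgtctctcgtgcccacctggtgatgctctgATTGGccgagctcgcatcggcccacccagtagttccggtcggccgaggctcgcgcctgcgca
Insig1: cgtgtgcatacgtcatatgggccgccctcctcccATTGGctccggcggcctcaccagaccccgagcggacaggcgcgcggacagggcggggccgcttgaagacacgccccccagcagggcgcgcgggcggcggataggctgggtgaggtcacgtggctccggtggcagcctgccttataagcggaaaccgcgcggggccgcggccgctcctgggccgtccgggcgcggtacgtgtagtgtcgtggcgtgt
Insig2: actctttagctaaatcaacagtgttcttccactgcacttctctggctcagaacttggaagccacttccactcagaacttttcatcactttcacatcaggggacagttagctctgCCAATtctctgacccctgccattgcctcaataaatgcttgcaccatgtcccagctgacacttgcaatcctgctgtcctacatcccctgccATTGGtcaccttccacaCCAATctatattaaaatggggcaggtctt

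TCACNCCAC was found, on both strands of 300-base windows from 250 bases before to 50 after the start, in 1 of the 24 member genes, Hmgcs1, 137 bases before the start. It was in 1.24% of all 32851 promoters of the table. CCAAT was in 73.3% of the 30 member promoters and in 22 of the 24 genes, against 37.4% of all promoters and 38.2% of the 21263 promoters of protein-coding genes. For Insig2 every CCAAT match lies in the window shown, and the other listed starts of that gene have none. GGGCGG, the core of the Sp1 site, was in 83.3% of member promoters, against 35.7% of all promoters and 46.2% of those of protein-coding genes. A match of one motif may overlap a match of another, and a match is a description of sequence and no measured binding site.

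Array medians lay between 6.21 and 7.50 on the log2 scale except on 2 arrays, DBA/2J restricted replicate 6 at 8.30 and B6C3F1/J control replicate 2 at 8.66. On the first of these the Gapdh control probe sets differed by 2.51 between the 3′ and 5′ ends, against -0.46 to 0.03 in the other 7 mice of its group. Restricted CBA/J mice had a mean array median of 7.29, against 6.52 in control CBA/J mice (exact permutation test, two-sided p = 0.000155, adjusted p = 0.00342 over 66 comparisons). Their Gapdh difference between the 3′ and 5′ ends also moved, with -0.03 in restricted and -0.40 in control CBA/J mice (exact permutation p = 0.000155, adjusted p = 0.00342), so in CBA/J the diet and these array measures cannot be told apart. In C57BL6/J the Actb difference between the 3′ and 5′ ends was 1.07 in restricted and 0.81 in control mice (exact permutation p = 0.00124, adjusted p = 0.0205). The Gapdh difference of C57BL6/J was -0.38 in both diets. In that strain the diet and the Actb measure cannot be told apart. Hepatocyte markers were detected above the array median in both diets, and 5 of 5 measured were called higher in restricted mice, with a list difference of 0.49 over strains (permutation p = 1e-05, the smallest these draws can give, adjusted p = 0.00011) and of 1.75 in CBA/J (exact permutation p = 0.000155, adjusted p = 0.00342). It was 0.47 in DBA/2J and 0.31 in C3H/HeJ (exact permutation, adjusted p = 0.0376 and 0.0433). In 129S1/SvImJ, C57BL6/J and B6C3F1/J it was -0.05, 0.14 and 0.35, with no adjusted p under 0.05. Alb, Ttr and Apoa1 differed by 0.21 to 0.25 over strains, but their differences in single strains ran from -0.46 to 1.95. The median of the measured markers was -0.44 in 129S1/SvImJ and -0.32 in C57BL6/J, against 1.73 in CBA/J. The summed signal of hepatocyte markers ran from 185894 to 1551636 in restricted mice and from 195988 to 928204 in control mice, and their part in the results below was not tested. Of other cell types, 1 of 7 Kupffer cell, 3 of 6 endothelial and 1 of 4 cholangiocyte markers were called higher, 2 of 6 stellate cell markers higher and 1 lower, 1 of 3 red cell markers lower, and 0 of 3 adipocyte and 0 of 5 lymphocyte markers were called in either direction or had an unadjusted p under 0.05. Over strains, 15.2% of all genes were called higher and 12.4% lower. The list differences over strains were 0.24 for stellate cell and 0.17 for endothelial markers (permutation, adjusted p = 0.0011 for each), 0.35 for cholangiocyte and 0.23 for Kupffer cell markers (adjusted p = 0.047 for each). In CBA/J they were 1.33 for cholangiocyte, 1.10 for lymphocyte and 0.61 for Kupffer cell markers (exact permutation, adjusted p = 0.0433, 0.0433 and 0.0267), and 2 of 5 lymphocyte markers were called higher there, beside 25.1% of all genes. The part of these in the results was not tested. In bulk tissue, fewer cells of a type and less RNA per cell cannot be told apart.

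Averaged over the 6 strains, restricted mice had higher signals for most of the pathway. Of the 27 genes measured, 20 were called higher and 0 lower, beside a background of 15.2% of all genes called higher and 12.4% called lower (limma). The counts by step of the pathway below stand beside the same shares. At an unadjusted p under 0.05 there were 21 genes, the 20 and Stard4, each with a positive difference. The median difference of the 27 genes was 0.61, against 0.07 over all genes tested. The count was 21 without the 2 arrays of high median and 22 without CBA/J, where 18.7% and 9.36% of all genes were called higher. These calls rest on 1 probe set per gene. Of 29 other kept probe sets, 12 were called in the same direction and 0 in the opposite one. A further 8 were not called where the chosen one was, and 9 had no call in either.

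**Figure D1:**
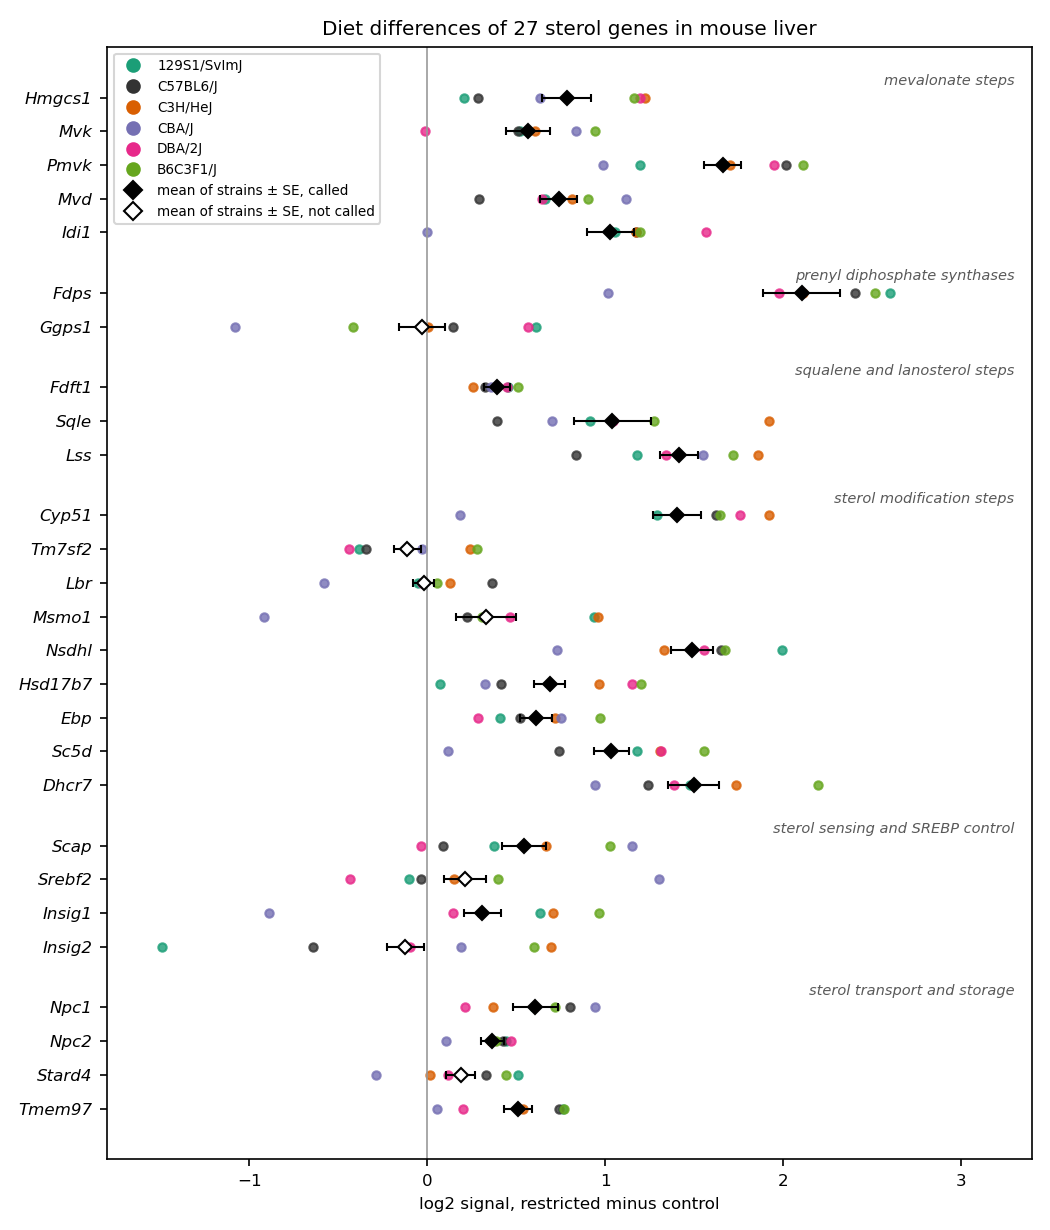
Differences in log2 signal, restricted minus control, of the 27 measured genes by step of the pathway. Coloured points are single strains, diamonds are the mean of the 6 strains with its SE, and filled diamonds mark called genes. The widest mean difference is that of Fdps at 2.10, and points of Insig2 lie between -1.49 and 0.70.

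The mevalonate steps rose as a block, with 5 of 5 measured genes called higher and differences from 0.57 to 1.66. Hmgcs1, the cytosolic HMG-CoA synthase that opens the pathway, differed by 0.78 ± 0.14 (SE, n = 48 mice per diet). Its other probe sets do not all follow: those 3 had mean differences of 0.33, 0.27 and 0.48, of which the last was called, and in CBA/J they had differences of -1.75, -1.86 and -0.48, the first pair called lower, where the chosen one had 0.63. Mvk, mevalonate kinase, differed by 0.57 and Mvd, the decarboxylase that makes isopentenyl diphosphate, by 0.74. Idi1, which interconverts the isopentenyl isomers, differed by 1.03 ± 0.13 but by 0.00 in CBA/J.

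Pmvk, phosphomevalonate kinase, had signals of 9.03 at the lowest, 11.05 at the median and 12.38 at the highest in restricted mice, against 7.95, 9.27 and 11.23 in control mice. The diets overlap over all mice, but the restricted median lies near the top of the control range. The difference was 1.66 ± 0.11, a 3.16-fold higher signal (limma, adjusted p = 5.06e-25).

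The prenyl diphosphate synthases parted ways. Fdps, farnesyl diphosphate synthase, which joins isoprene units for squalene and for prenyl groups, had signals of 6.59, 14.10 and 15.35 at the lowest, median and highest in restricted mice, against 9.40, 11.69 and 14.23 in control mice. The lowest restricted value is that of the DBA/2J array of high median, and the other 7 restricted DBA/2J mice lay between 14.22 and 15.08. The difference was 2.10 ± 0.22, a 4.30-fold higher signal (adjusted p = 1.56e-13), and it was the largest of the 27 genes. Ggps1, geranylgeranyl diphosphate synthase, which feeds protein prenylation rather than sterol, differed by -0.03 ± 0.13 and was not called. By strain its differences ran from -1.08 in CBA/J to 0.61 in 129S1/SvImJ.

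All 3 genes that carry farnesyl diphosphate to lanosterol were called higher. Fdft1, squalene synthase, differed by 0.39 ± 0.07, the smallest of them, and was called in none of the single strains. Sqle, squalene epoxidase, had signals of 5.14, 10.76 and 12.72 in restricted mice, against 7.38, 9.35 and 11.28 in control mice as lowest, median and highest. Those ranges overlap widely, and the difference was 1.04 ± 0.21 (adjusted p = 6.83e-05). Lss, lanosterol synthase, which closes the ring system, had 8.64, 10.72 and 12.39 in restricted mice, against 8.16, 9.33 and 11.59 in control mice. Its difference was 1.42 ± 0.11, a 2.67-fold higher signal (adjusted p = 9.23e-21).

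**Figure D2:**
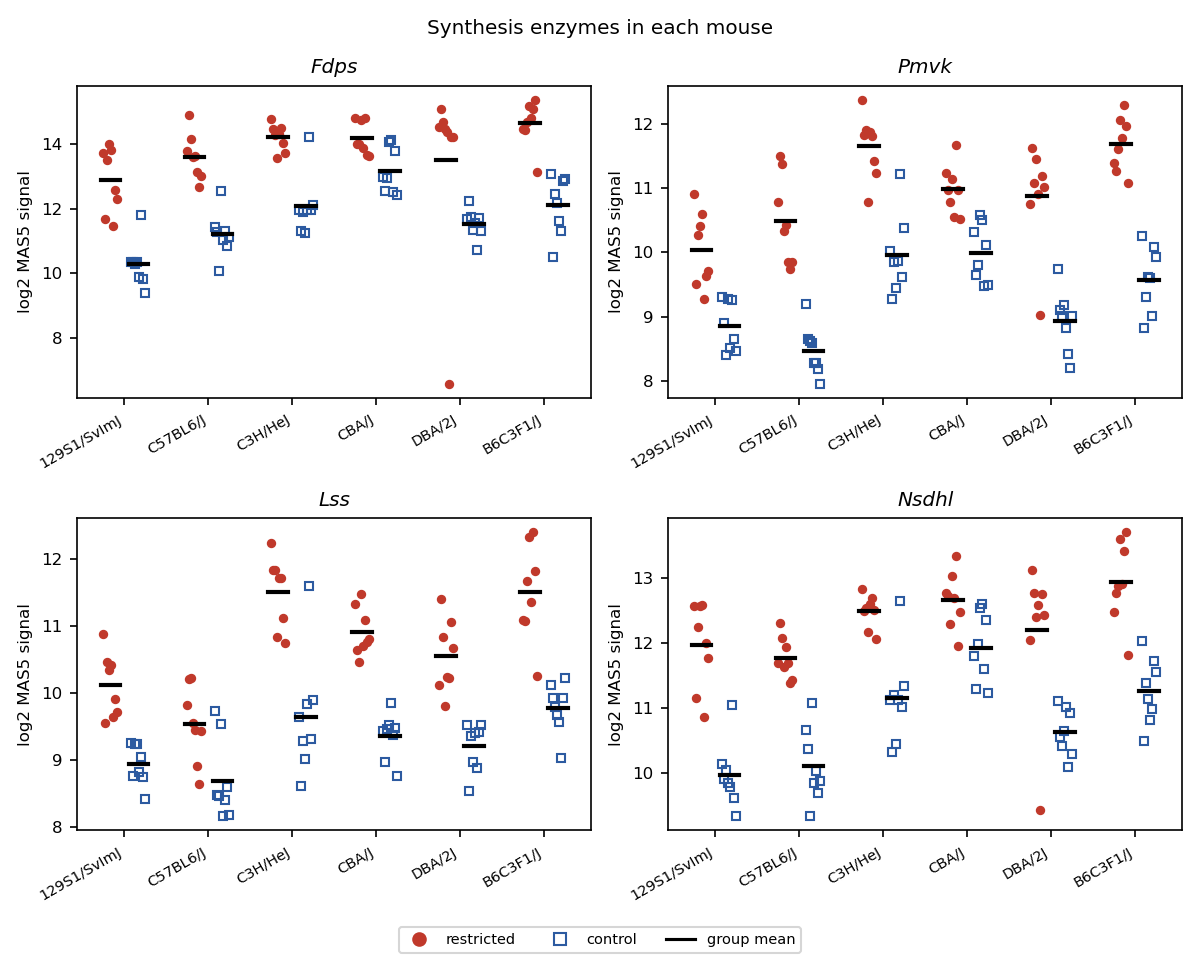
Log2 MAS5 signal of Fdps, Pmvk, Lss and Nsdhl in each of the 96 mice, with restricted mice as filled circles left of control mice as open squares in each strain. Horizontal bars are group means. The single low circle of Fdps in DBA/2J is at 6.59, and C3H/HeJ control replicate 6 is the high square of its group in all 4 genes.

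Of the 9 genes that turn lanosterol into cholesterol, 6 were called higher and 3 were not called. Cyp51, the lanosterol demethylase, had signals of 8.54, 11.51 and 13.13 in restricted mice, against 8.14, 9.98 and 12.39 in control mice as lowest, median and highest. It differed by 1.40 ± 0.14 over strains, but by 0.18 in CBA/J, where it was not called. The sterol reductases Tm7sf2 and Lbr act next and can stand in for each other; they differed by -0.11 ± 0.08 and -0.02 ± 0.06, and neither was called.

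The enzymes that strip the methyl groups gave unequal values. Msmo1, the methylsterol oxidase, differed by 0.33 ± 0.17 and was not called (adjusted p = 0.144), with -0.92 in CBA/J. Without CBA/J its difference was 0.58 ± 0.19 and it was called (adjusted p = 0.0256). Nsdhl, the decarboxylating dehydrogenase that works beside it, had signals of 9.44, 12.49 and 13.70 in restricted mice, against 9.35, 10.96 and 12.65 in control mice. Its difference was 1.49 ± 0.12 (adjusted p = 4.21e-19). Hsd17b7, the ketoreductase of the same complex, differed by 0.69 ± 0.09.

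The last steps were called higher throughout. Ebp, the sterol isomerase, differed by 0.61 ± 0.09. Sc5d, the desaturase that makes the precursor of the last reduction, had signals of 10.81, 13.78 and 14.82 in restricted mice, against 10.93, 12.69 and 14.01 in control mice. It differed by 1.04 ± 0.10 (adjusted p = 3.75e-15), but its other probe sets had differences of 0.21 and 0.08, neither called. Dhcr7, the reductase that ends the pathway, had 9.44, 11.52 and 12.77 in restricted mice, against 6.19, 10.03 and 12.16 in control mice, a difference of 1.5 ± 0.14 (adjusted p = 3.26e-15).

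Of the 4 sensing genes, 2 were called higher and 0 lower, beside 15.2% and 12.4% of all genes. Scap, the sterol sensor that escorts SREBP, had signals of 9.95, 12.68 and 13.53 in restricted mice, against 10.20, 12.17 and 13.28 in control mice, and differed by 0.55 ± 0.12 (adjusted p = 0.000284). Insig1, which retains SCAP and is itself a classic SREBP target, had 8.66, 11.29 and 12.58 in restricted mice, against 8.58, 11.04 and 12.01 in control mice. Its difference was 0.31 ± 0.10 (adjusted p = 0.018), and the call was lost when arrays were centred on the 75th percentile (adjusted p = 0.0557). The diets overlap almost fully for both genes.

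Srebf2 and Insig2 were not called over strains. Srebf2 had signals of 6.08, 8.79 and 9.80 in restricted mice, against 6.77, 8.54 and 9.96 in control mice, and differed by 0.21 ± 0.12 (adjusted p = 0.174). Insig2 had 11.57, 12.62 and 14.15 in restricted mice, against 9.99, 12.60 and 14.60 in control mice, and differed by -0.12 ± 0.10 (adjusted p = 0.414). The medians of Insig2 are nearly equal and its control values spread wider.

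**Figure D3:**
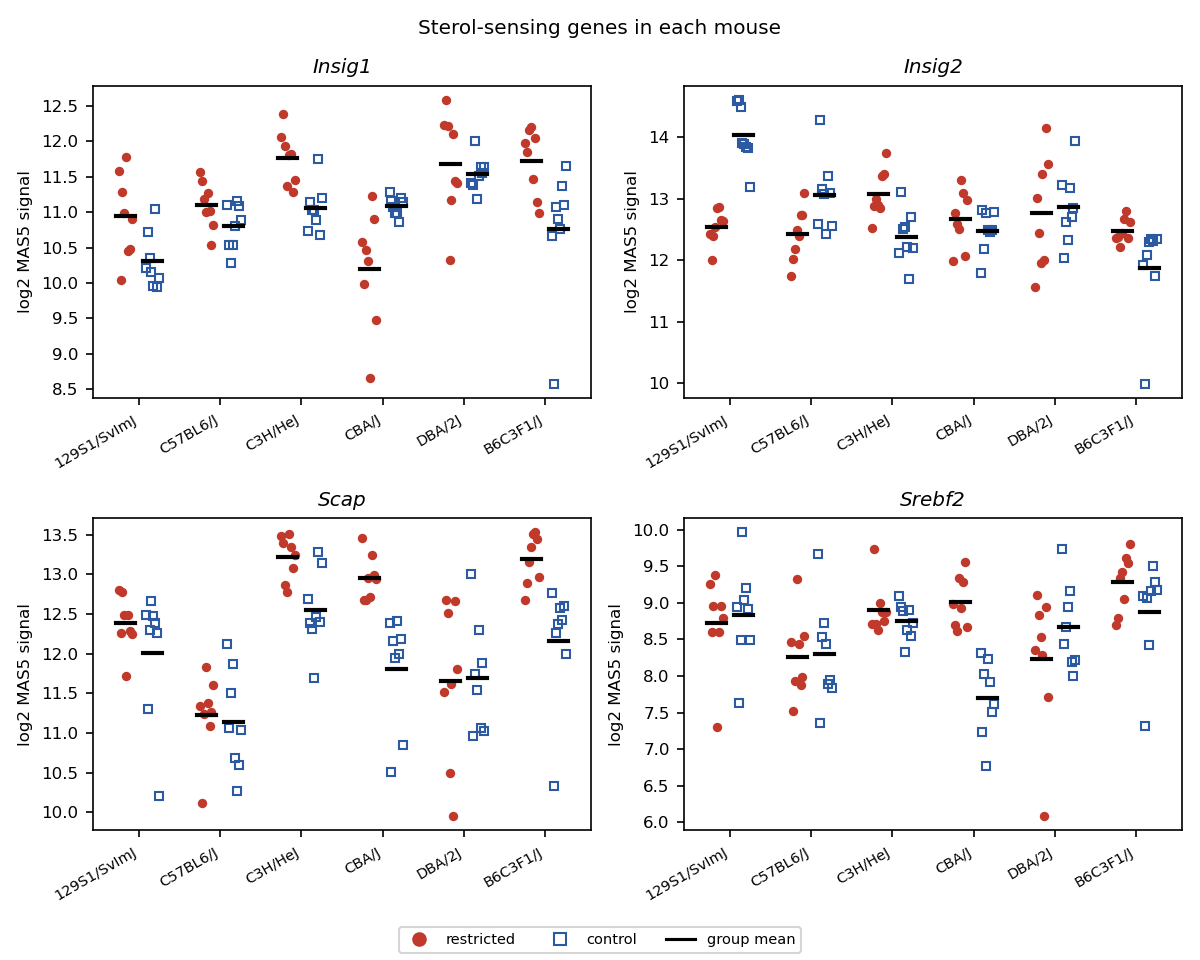
Log2 MAS5 signal of Insig1, Insig2, Scap and Srebf2 in each of the 96 mice, with restricted mice as filled circles left of control mice as open squares in each strain and group means as bars. In 129S1/SvImJ the restricted mice of Insig2 end at 12.87 and the control mice start at 13.19. In CBA/J, Srebf2 of restricted mice starts at 8.62 and that of control mice ends at 8.31.

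Of the 4 transport genes measured, 3 were called higher. Npc1, the membrane protein that exports cholesterol from lysosomes, had signals of 8.18, 11.41 and 11.98 in restricted mice, against 9.18, 10.81 and 11.94 in control mice, and differed by 0.61 ± 0.13 (adjusted p = 8.67e-05). Npc2, which hands cholesterol to it within the lysosome, differed by 0.36 ± 0.06, and Tmem97, which binds NPC1, by 0.51 ± 0.08. Stard4, a cytosolic sterol carrier, differed by 0.19 ± 0.08 and was not called (adjusted p = 0.0737), and without CBA/J by 0.28 ± 0.09 with a call (adjusted p = 0.0216).

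Within single strains the calls were fewer but, outside CBA/J, almost all upward. In 129S1/SvImJ 9 genes were called higher and 1, Insig2, lower, beside 2.79% and 2.47% of all genes. In C57BL6/J 8 were called higher and 0 lower (1.86% and 1.85%), and in C3H/HeJ 11 and 0 (1.1% and 0.851%). In DBA/2J 10 were called higher and 0 lower (2.3% and 4.45%), and 14 higher without the 2 arrays of high median (3.92%). In B6C3F1/J 15 were called higher and 0 lower (3.35% and 1.26%), and 11 higher without those 2 arrays (2.36%), a setting under which strains that hold neither array moved too, C3H/HeJ to 15 and C57BL6/J to 11 (2.23% and 3.64%).

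Pmvk, Lss, Nsdhl and Dhcr7 were the 4 members called higher in each of the 6 strains, as were 0.122% of all genes.

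CBA/J stood apart in its background. There 10 genes were called higher and 3, Ggps1, Lbr and Insig1, lower, where 25.1% of all genes were called higher and 15.6% lower. The median difference of the 27 genes in CBA/J was 0.36, against 0.31 over all genes, while in the other 5 strains it ran from 0.42 in C57BL6/J to 0.97 in B6C3F1/J, against -0.02 to 0.05 over all genes. CBA/J had the lowest strain difference in Pmvk, Idi1, Fdps, Ggps1, Cyp51, Lbr, Msmo1, Nsdhl, Sc5d, Dhcr7, Insig1, Npc2, Stard4 and Tmem97 and the highest in Mvd, Scap, Srebf2 and Npc1, with 1.15 in Scap. These values stand beside the shifted array median, Gapdh difference and cell type markers of restricted CBA/J mice given above, and in this strain the diet and those array measures cannot be told apart.

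The test of whether the diet difference varied with strain called 9 of the 27 genes, beside 23.9% of all genes. Without CBA/J it called 1 gene, Insig2 (1.55% of all genes), and without the 2 arrays of high median it called 14 (30.2%). Without both it called Insig2 and Hsd17b7 (3.96%). Of the 9 genes, Insig2 alone was called both with all strains and without CBA/J when all other arrays were kept.

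Insig2, the second INSIG gene, whose liver transcript in mouse is known to be regulated apart from Insig1, had the smallest interaction p (adjusted p = 3.25e-06, and 0.000161 without CBA/J). In 129S1/SvImJ it had signals of 12, 12.59 and 12.87 as lowest, median and highest in restricted mice, against 13.19, 13.90 and 14.60 in control mice. The groups do not overlap, and the difference was -1.49 ± 0.26 (adjusted p = 1.38e-05). In C57BL6/J it had 11.75, 12.44 and 13.09 in restricted mice, against 12.43, 13.09 and 14.27 in control mice, a difference of -0.64 that was not called.

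The hybrid and its other parent lay on the far side of 0. C3H/HeJ had Insig2 signals of 12.53, 12.94 and 13.74 in restricted mice, against 11.70, 12.36 and 13.11 in control mice, a difference of 0.70 that was not called. B6C3F1/J had 12.21, 12.41 and 12.81 in restricted mice, against 9.99, 12.19 and 12.34 in control mice, a difference of 0.60 that was not called, and its lowest control value is that of the array of high median. CBA/J had 11.98, 12.68 and 13.30 in restricted mice, against 11.78, 12.49 and 12.82 in control mice, and DBA/2J had 11.57, 12.73 and 14.15 against 12.04, 12.77 and 13.93.

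Restricted medians of Insig2 thus lay within 12.41 to 12.94 in all 6 strains, and control medians within 12.19 to 13.90. Set against 129S1/SvImJ, the diet difference was 2.19 ± 0.36 higher in C3H/HeJ (adjusted p = 9.4e-05), 2.10 ± 0.36 in B6C3F1/J (adjusted p = 0.000373), 1.68 ± 0.36 in CBA/J (adjusted p = 0.00031) and 1.40 ± 0.36 in DBA/2J (adjusted p = 0.0487), and 0.85 ± 0.36 in C57BL6/J, which was not called (adjusted p = 0.702). The other probe sets of Insig2 had differences of -1.61 and -1.69 in 129S1/SvImJ, both called lower, and 0.78 and 0.76 in C3H/HeJ. They disagreed in CBA/J, with -1.48 and 0.02.

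Insig1 followed another pattern (interaction adjusted p = 0.000506, and 0.56 without CBA/J). In CBA/J it had 8.66, 10.38 and 11.22 in restricted mice, against 10.87, 11.11 and 11.29 in control mice, a difference of -0.89 ± 0.26 (adjusted p = 0.00382). The restricted CBA/J mice reach far below a tight control group. In B6C3F1/J it had 10.99, 11.91 and 12.20 in restricted mice, against 8.58, 10.99 and 11.65 in control mice, a difference of 0.97 that was called. The 8.58 is that of the array of high median, and the other control mice of that strain start at 10.66. In 129S1/SvImJ Insig1 had 10.05, 10.95 and 11.77 in restricted mice, against 9.95, 10.19 and 11.04 in control mice, a difference of 0.63 that was not called. C3H/HeJ differed by 0.71, C57BL6/J by 0.30 and DBA/2J by 0.14, none called.

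Srebf2 was called in 1 strain (interaction adjusted p = 0.00961). In CBA/J it had 8.62, 8.95 and 9.55 in restricted mice, against 6.77, 7.77 and 8.31 in control mice. Those groups do not overlap, and the difference was 1.31 ± 0.29 (adjusted p = 0.00015). Its other probe set differed by 0.89 in CBA/J, called higher. In that strain 25.1% of all genes were called higher, and the groups of Scap did not overlap either. In the other 5 strains the difference of Srebf2 ran from -0.43 in DBA/2J to 0.40 in B6C3F1/J, with none called.

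Hsd17b7 differed least in 129S1/SvImJ, with 10.94, 11.72 and 12.31 in restricted mice, against 10.96, 11.70 and 11.90 in control mice, a difference of 0.07 (interaction adjusted p = 0.00477). In DBA/2J it had 11.61, 11.92 and 12.66 in restricted mice, against 10.35, 10.94 and 11.20 in control mice, with no overlap and a difference of 1.15. In B6C3F1/J it had 11.22, 12.51 and 12.96 in restricted mice, against 9.58, 11.46 and 11.79 in control mice, a difference of 1.20. Both were called, as was that of C3H/HeJ at 0.97, and those of C57BL6/J at 0.42 and CBA/J at 0.32 were not. The B6C3F1/J control value of 9.58 is that of the array of high median, and the other control mice start at 10.91. Its restricted value of 11.22 is that of replicate 8, and the other restricted mice start at 12.32.

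Sc5d, with an interaction adjusted p of 0.00685, was called higher in 4 strains. In B6C3F1/J it had 13.73, 14.49 and 14.82 in restricted mice, against 11.03, 13.19 and 13.32 in control mice, a difference of 1.56. The 11.03 is that of the array of high median, and the other control mice start at 13.04. The 13.73 is that of replicate 8, and the other restricted mice start at 14.41. In CBA/J Sc5d had 12.22, 12.95 and 13.67 in restricted mice, against 12.29, 12.76 and 13.24 in control mice, a difference of 0.12 that was not called. Lbr (interaction adjusted p = 0.00591) had 8.24, 8.51 and 8.66 in restricted CBA/J mice, against 8.80, 9.06 and 9.34 in control CBA/J mice, with no overlap and a difference of -0.58. In CBA/J 15.6% of all genes were called lower. In C57BL6/J Lbr had 9.47, 9.87 and 10.15 in restricted mice, against 9.21, 9.42 and 9.78 in control mice, a difference of 0.36 that was not called.

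Strains also differed in level within a diet. Of the 27 genes, 23 differed between the 6 control groups and 25 between the 6 restricted groups, beside 43.7% and 66.3% of all genes. In control mice, 129S1/SvImJ against the mean of the other 5 strains had 2 genes called higher, Insig2 and Hsd17b7, and 12 lower (6.17% and 6.58% of all genes). C57BL6/J had 3 called higher and 11 lower (8.68% and 7.59%). C3H/HeJ had 5 called higher and 0 lower (5.83% and 4.18%), CBA/J had 6 higher and 1 lower (5.52% and 6.59%), and DBA/2J had 1 higher and 1 lower (7.25% and 7.36%), or 2 and 2 without the 2 arrays of high median (10.8% and 10.9%). B6C3F1/J had 1 higher, Lss, and 1 lower, Insig2 (3.48% and 7.67%), or 10 and 1 without those arrays (5.49% and 4.74%).

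Restricted groups differed between strains in these genes as well. C3H/HeJ had 12 genes called higher than the mean of the other 5 strains and 0 lower (9.59% and 8.76% of all genes). B6C3F1/J had 11 higher and 0 lower (3.24% and 2.73%), or 19 higher without the 2 arrays of high median (6.1%). 129S1/SvImJ had 0 higher and 8 lower (4.39% and 4.16%), or 13 lower without those arrays (6.81%). C57BL6/J had 3 higher and 13 lower (13.7% and 16.9%), CBA/J 6 and 7 (28.3% and 18.5%), and DBA/2J 2 and 5 (10.1% and 16.3%), or 3 and 3 without those arrays (10.9% and 14.3%). In C57BL6/J the lower genes included Lss by -1.39 ± 0.20 (adjusted p = 2.54e-08) and Scap by -1.45 ± 0.23 (adjusted p = 5.97e-07), and Lbr was higher by 0.88 ± 0.11 (adjusted p = 5.23e-10).

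**Figure D4:**
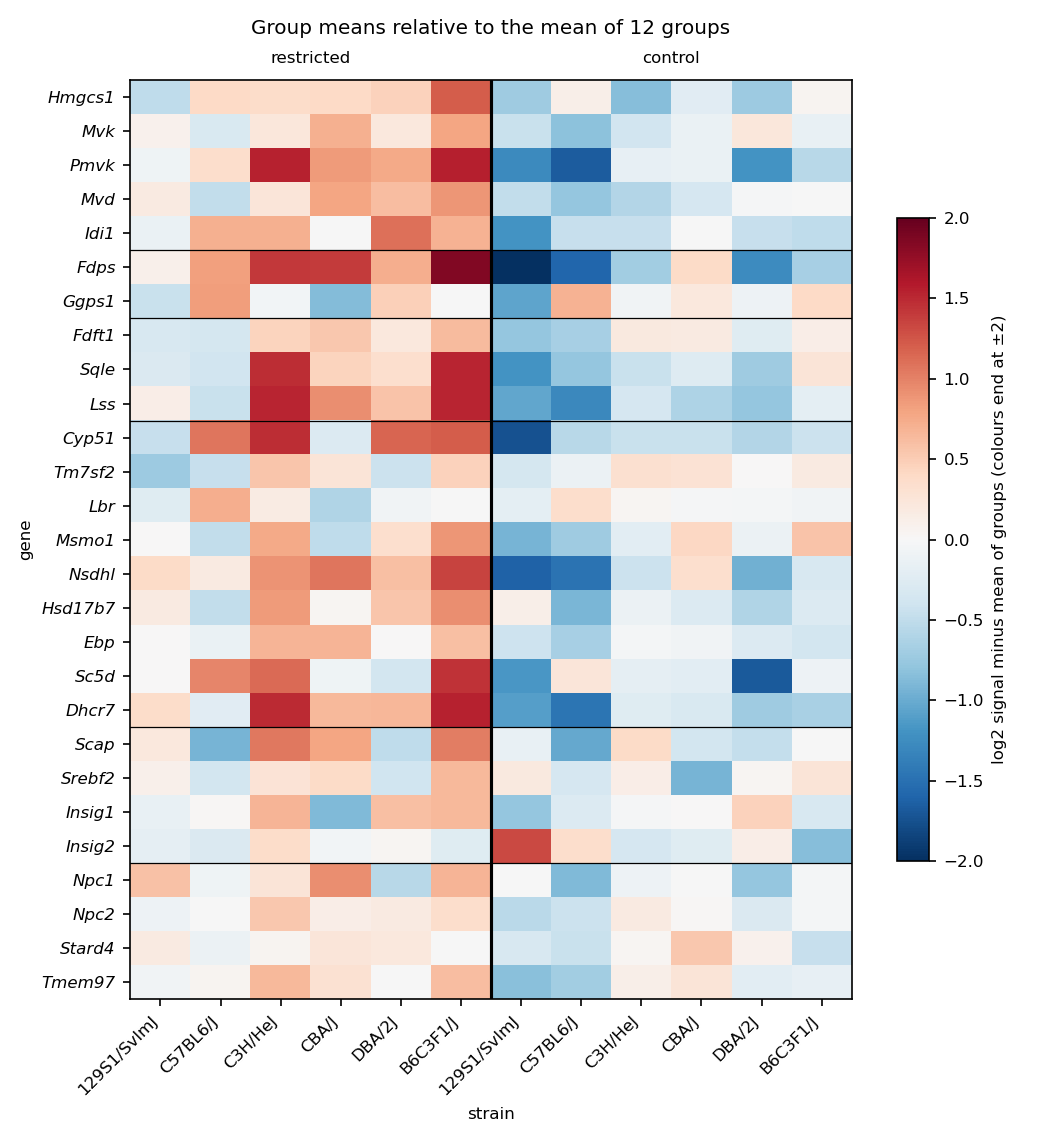
Group means of log2 signal of the 27 genes in each of the 12 groups, shown as the difference from the mean of the 12 groups, with the 6 restricted groups left of the 6 control groups. Colours end at 2 in either direction. Insig2 is highest in 129S1/SvImJ control mice, where most synthesis genes are below their mean, and Sc5d is lowest in DBA/2J control mice.

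Among control groups the 5 genes of smallest p were Sc5d, Insig2, Nsdhl, Pmvk and Fdft1. Sc5d had medians of 13.20 in C57BL6/J, 13.19 in B6C3F1/J, 12.76 in CBA/J, 12.69 in C3H/HeJ, 11.85 in 129S1/SvImJ and 11.37 in DBA/2J control mice. DBA/2J was below the mean of the other 5 (log2 difference -1.39 ± 0.19, adjusted p = 8.77e-09), and its control range of 10.93 to 11.67 overlaps that of 129S1/SvImJ, 11.26 to 12.30. The C3H/HeJ range starts at 12.44, above that of 129S1/SvImJ, and the other neighbours in the order overlap. Insig2 control medians fell in the order 13.90 in 129S1/SvImJ, 13.09 in C57BL6/J, 12.77 in DBA/2J, 12.49 in CBA/J, 12.36 in C3H/HeJ and 12.19 in B6C3F1/J, each range overlapping the next, and 129S1/SvImJ was 1.51 ± 0.20 above the mean of the other 5 (adjusted p = 2.28e-09).

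Nsdhl control medians were 11.90 in CBA/J, 11.27 in B6C3F1/J, 11.13 in C3H/HeJ, 10.60 in DBA/2J, 9.96 in C57BL6/J and 9.88 in 129S1/SvImJ. CBA/J was 1.3 ± 0.22 above the mean of the other 5 (adjusted p = 8.33e-06). Pmvk control medians were 9.96 in CBA/J, 9.86 in C3H/HeJ, 9.61 in B6C3F1/J, 9.01 in DBA/2J, 8.77 in 129S1/SvImJ and 8.43 in C57BL6/J, the last below the mean of the other 5 (log2 difference -0.99 ± 0.20, adjusted p = 9.35e-05). Fdft1 control medians ran from 12.94 in B6C3F1/J to 11.85 in 129S1/SvImJ, which was lower than the other 5 by a log2 difference of -0.69 ± 0.14 (adjusted p = 8.08e-05). Neighbours in each of these orders overlap.

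Against the mean of its parents C57BL6/J and C3H/HeJ, the number of hybrid levels called in control mice depended on the 2 arrays of high median. With all arrays 2 of 27 genes were called in B6C3F1/J control mice, beside 2.72% of all genes called higher and 6.22% lower. They were Mvd, with a difference of 0.66 ± 0.22, and Insig2, with -0.85 ± 0.22. When those arrays were left out, 8 were called higher and 0 lower (4.04% and 4.1%), so Insig2 was no longer called lower. In restricted mice 8 were called higher (3.71%), among them Mvd by 1.01, Lss by 0.98 and Scap by 0.97, and 1 lower (5.64%), Lbr by -0.45. Without the 2 arrays of high median 13 were higher and 1 lower (8.05% and 8.72%). The diet difference itself was called as unlike the parents' in 0 of 27 genes (limma, 0.00675% of all genes), 0 had an unadjusted p under 0.05, and the lowest unadjusted p was 0.0577.

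Mice of a group also varied together. Over 96 mice, with each group's mean removed, Hmgcs1 and Sqle had r = 0.62 and rho = 0.76 (permutation p = 1e-05, the smallest these draws can give, adjusted p = 2e-05 over 6 pairs). Within diets r was 0.59 in restricted mice and 0.71 in control mice, and it was 0.59 without the 2 mice farthest from the Hmgcs1 median and 0.90 without the 2 arrays of high median. Fdps and Idi1 had r = 0.54 and rho = 0.73 (permutation p = 1e-05, adjusted p = 2e-05), with 0.46 in restricted mice and 0.76 in control mice, 0.73 without the 2 farthest mice and 0.82 without the 2 arrays of high median. Mice high in one synthesis gene of their group thus tended to be high in the other.

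The sensors shared this to different degrees. Hmgcs1 and Insig1 had r = 0.61 and rho = 0.61 (permutation p = 1e-05, adjusted p = 2e-05), with 0.61 in restricted mice and 0.60 in control mice and 0.58 without the 2 farthest mice. Hmgcs1 and Srebf2 had r = -0.01 and rho = 0.09 (permutation p = 0.897, adjusted p = 0.897), with -0.15 in restricted mice and 0.16 in control mice and 0.05 without the 2 farthest. Insig1 and Insig2 had r = 0.05 and rho = -0.19 (permutation p = 0.718, adjusted p = 0.861), with -0.28 in restricted mice and 0.41 in control mice, -0.12 without the 2 farthest and -0.18 without the 2 arrays of high median, where the sign turned. Stard4 and Npc1 had r = -0.09 and rho = -0.17 (permutation p = 0.356, adjusted p = 0.534), with -0.19 in restricted mice and -0.02 in control mice, -0.13 without the 2 farthest and -0.26 without the 2 arrays of high median, and r was -0.25 with the array median regressed out (permutation p = 0.00981, adjusted p = 0.0147).

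**Figure D5:**
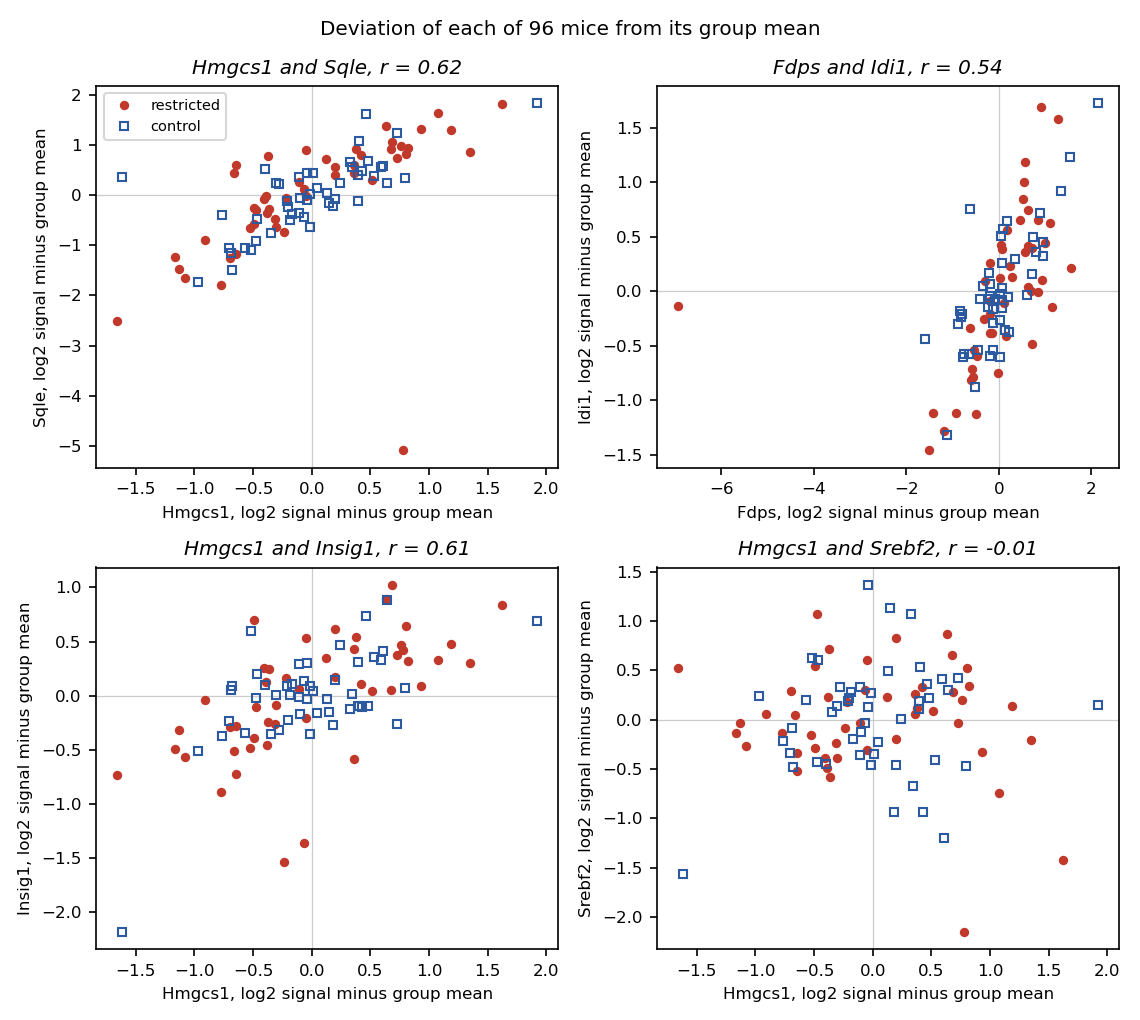
Deviation of each of the 96 mice from its group mean, in log2 signal, for 4 pairs of genes, with restricted mice as filled circles and control mice as open squares. Hmgcs1 runs with Sqle and with Insig1 (r = 0.62 and 0.61), Fdps with Idi1 (r = 0.54), and Hmgcs1 shows no slope with Srebf2 (r = -0.01).

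Single mice lay apart from their group in many of the genes. The counts below were made over the members alone, without the share over all genes, so they are no result about the members. Of the 2 arrays of high median, DBA/2J restricted replicate 6 had signals below all other 7 mice of its group in 17 of 27 genes, by -1.10 at the median of the genes, and B6C3F1/J control replicate 2 in 21, by -1.85. C3H/HeJ control replicate 6 had signals above all other 7 mice of its group in 18 of 27 genes, by 0.88 at the median of the genes, and B6C3F1/J restricted replicate 8 had signals below all other 7 in 17, by -0.80 at the median. The array medians of this last pair, 6.32 and 6.72, lay within the range of the other mice of their groups. Their Actb differences between 3′ and 5′ probe sets, 0.64 and 0.88, lay just outside the 0.68 to 1.56 and 0.45 to 0.83 of the other mice. Without the C3H/HeJ mouse that strain had 12 genes called rather than 11 and the interaction 12 rather than 9. Without the restricted B6C3F1/J mouse that strain had 16 called rather than 15. The shares of all genes called without these mice are not given, so these changes are no result about the members.

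Genes that work beside the pathway were described from lists. All 6 measured genes that supply acetyl-CoA and NADPH were called higher, with a median difference of 1.09. Among them Acss2, which makes acetyl-CoA from acetate, differed by 1.97, Acly, which makes it from citrate, by 1.80, and Pgd, which yields NADPH in the pentose phosphate path, by 1.23. Of 10 measured genes of SREBP processing and sterol-regulated degradation, 2 were called higher, Srebf1 at 1.02 and Rnf145 at 0.46, and 1 lower, the ubiquitin ligase Marchf6 at -0.33, beside 15.2% of all genes called higher and 12.4% lower. Srebf1 encodes SREBP-1, which governs fatty acid more than sterol synthesis.

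Against the same shares of all genes, of 5 measured electron donors of the sterol oxygenases, 1 was called higher, the cytochrome b5 reductase Cyb5r3 at 0.76. Of 9 measured users of isoprenoids, 0 were called higher and 2 lower, Nus1, a subunit of the dolichol-making enzyme, at -0.30 and Fnta, a subunit of protein farnesyltransferase, at -0.17. The list of oxysterol receptors, their targets and oxysterol enzymes had 8 measured genes. Lpcat3 at 0.45 and the enzyme Cyp27a1 at 0.25 were called higher, and Cyp7b1, the oxysterol hydroxylase, at -1.05 was called lower. The median differences of these 3 lists were 0.16, -0.09 and 0.01, against 0.07 over all genes.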

How the data were processed

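Liver RNA of 96 mice was measured on 96 arrays in 12 groups of 8. The authors deposited a linear intensity per probe set, made with MAS5 per the submitters' processing notes, and each array's trimmed mean, without the outer 2% at each end, was at 500 in the files. The sources used here give no MAS5 settings. Signals were turned into log2 values without further scaling. Of 45101 probe sets, 64 controls were dropped and 32984 kept that reached the array median on 8 or more arrays. In the platform annotation 34958 probe sets had a single symbol, 932 several and 9211 none. For each gene the kept probe set with the greatest mean log2 signal was taken, and 14813 genes were tested.

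R 4.3.3 and limma 3.58.1 fitted a mean per group (lmFit, then eBayes with trend and robust variances). Benjamini-Hochberg adjustment ran over the whole gene table, with calls under 0.05. Differences are restricted minus control, or the named strain minus the others. Permutations, two-sided, used 100000 draws within groups or strains, or all 12870 splits of a strain, in Python 3.11.15. On simulated data for the averaged diet effect, with 14813 genes, 98% and 90% of changes of -1 and 1, and 60% and 58% of changes of -0.5 and 0.5, were recovered. For the interaction of diet with strain, 42% of changes of 2 in 1 strain were recovered. The number of arrays limits the precision.

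The members, gene lists and tests were chosen with earlier results of these data known. All measured members are named. Signals per diet are given for the 8 largest differences, the sensing genes and Npc1, and signals by strain for the 6 smallest interaction p-values and the 5 smallest over control groups, in part. From other lists up to 3 called genes of smallest p are named. Replicate numbers are shared between diets, and the deviations of 48 same-numbered pairs correlated by -0.17 to 0.14, with 5 above 0.1, so mice were not paired.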

Additional observations from a re-analysis of the deposited data

Results flagged for a closer look

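Among 216 tests of groups of 8 mice, 41 found a mouse apart from the other 7 of its group, by a gap beyond Dixon's critical value of 0.526 of the range. Chance gives about 1 in 20 groups. DBA/2J restricted replicate 6 lay apart in 9 measures, with log2 signals of 6.59 for Fdps, 9.03 for Pmvk, 9.44 for Nsdhl, 5.14 for Sqle, 10.81 for Sc5d, 6.08 for Srebf2, 8.18 for Npc1, 8.30 for the array median and 2.51 for the Gapdh difference between 3′ and 5′ probe sets. B6C3F1/J control replicate 2 lay apart in 9 measures, with log2 signals of 6.19 for Dhcr7, 11.03 for Sc5d, 10.33 for Scap, 8.58 for Insig1, 9.99 for Insig2, 9.58 for Hsd17b7, 10.85 for Fdft1, 8.66 for the array median and 0.10 for the Gapdh difference between 3′ and 5′ probe sets. C3H/HeJ control replicate 6 lay apart in 7 measures, with log2 signals of 14.23 for Fdps, 12.16 for Dhcr7, 12.65 for Nsdhl, 11.59 for Lss, 12.39 for Cyp51, 11.28 for Sqle and 14.01 for Sc5d. B6C3F1/J restricted replicate 8 lay apart in 5 measures, with log2 signals of 13.12 for Fdps, 11.26 for Dhcr7, 8.91 for Sqle, 13.73 for Sc5d and 11.22 for Hsd17b7.

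The other mice lay apart in 1 or 2 measures. 129S1/SvImJ control replicate 6 had 11.81 for Fdps, beside 9.40 to 10.35 in the other 7 mice and 11.05 for Nsdhl, beside 9.35 to 10.15 in the other 7 mice. 129S1/SvImJ control replicate 8 had 8.80 for Dhcr7, beside 9.56 to 9.82 in the other 7 mice. C57BL6/J control replicate 4 had 13.81 for Sc5d, beside 13.03 to 13.33 in the other 7 mice. C57BL6/J restricted replicate 2 had 10.11 for Scap, beside 11.09 to 11.83 in the other 7 mice and 9.24 for Npc1, beside 10.74 to 11.36 in the other 7 mice. 129S1/SvImJ restricted replicate 5 had 7.31 for Srebf2, beside 8.60 to 9.38 in the other 7 mice and 10.80 for Npc1, beside 11.32 to 11.75 in the other 7 mice. C3H/HeJ restricted replicate 2 had 9.73 for Srebf2, above the other 7 mice. B6C3F1/J restricted replicate 1 had 11.07 for Npc1, beside 11.55 to 11.86 in the other 7 mice. C3H/HeJ control replicate 8 had 0.25 for the Gapdh difference between 3′ and 5′ probe sets, beside -0.43 to -0.34 in the other 7 mice.

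The diet difference varied with strain, by limma's F test, in 9 genes, with adjusted p of 3.25e-06 for Insig2, 0.000506 for Insig1, 0.00477 for Hsd17b7, 0.00591 for Lbr, 0.00685 for Sc5d, 0.00961 for Srebf2, 0.0136 for Ggps1, 0.0265 for Cyp51 and 0.0417 for Pmvk. By the same test 23.9% of all genes were called. Without CBA/J only Insig2 was called of these genes, beside 1.55% of all genes.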

How the results depend on the processing

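Of 432 recomputed single-gene diet differences, 420 had the same call, 2 lost it, 10 gained it and 0 reversed. Both losses were Insig1, under centring on the 75th percentile and under an adjusted p of 0.01. The count called higher over strains ran from 19 to 23 over all alternatives, and the count called lower was 0 in each. Leaving out C3H/HeJ control replicate 6 or B6C3F1/J restricted replicate 8, chosen after the data were seen, gave 20 to 21 higher and 0 lower. Without those mice the interaction had 10 to 12 calls, C3H/HeJ 12 and B6C3F1/J 16, given without the share of all genes called. The causes of the moved counts below were not tested. The hybrid against its parents in control mice had 2 genes called, but 5 after quantile normalization, 1 after centring on the 75th percentile, 4 with the mean of probe sets, 15 with array weights, 1 with only the groups compared, 8 without the 2 arrays of high median, 7 with the array median as covariate and 1 at an adjusted p of 0.01. C57BL6/J had 8, but 5 after centring on the 75th percentile, 15 with array weights and 4 at 0.01. C3H/HeJ had 11, but 20 with array weights, 18 with only its own groups and 7 at 0.01. CBA/J had 13, but 20 with the array median as covariate, and B6C3F1/J had 15, but 8 with only its own groups. The interaction had 9 (23.9% of all genes), but 15 with array weights, 14 without the 2 arrays (30.2%) and 1 without CBA/J (1.55%). The other moved counts stand without the share of all genes called under the same setting, so they are no result about the members. With the replicate block 20 genes were called higher and 0 lower over strains, the interaction had 9, and no count moved by over 1.5 times; 3 restricted mice of 48 correlated best with their own number. Other probe sets of the members had the same call in 37 of 58 tests between groups, lost it in 15 and gained it in 6. For the diet difference over strains, 12 of 29 other probe sets were called in the same direction, 0 in the opposite one, 8 were not called where the chosen one was, and 9 had no call in either. Those 8 include probe sets of Hmgcs1 and Sc5d given above, and the rest are not named here.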
